A study of Oryza sativa with 12 samples.

Results

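Rice endo-beta-1,4-glucanases of glycoside hydrolase family 9 (GH9) were followed through RNA sequencing of the abscission zone, the layer of cells between pedicel and spikelet where the grain detaches. The family is represented by 10 locus IDs taken from a fixed list, out of 55986 IDs in the table that compares ossh1 with WT, and all 10 are in that table. In the table that compares oscct with CK, 3 of the 10 are listed, among 11688 IDs in all. Neither the files nor the reference gene table give these IDs a name or an annotation, so membership of the family and the description of LOC_Os03g52630 as a KORRIGAN-type gene rest on the list. Whether other members are of that membrane-bound type was not checked. By the naming convention of the IDs, the members lie on chromosomes 1, 2, 3, 4, 6, 8 and 9, with 2 members each on chromosomes 2, 3 and 4. No sequence of a member is printed because the files and the reference table hold none for these IDs.

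The 12 libraries form 4 groups of 3, all from abscission zones sampled at flowering. WT is the wild type beside the mutant ossh1, and CK is the wild type beside the mutant oscct. The labels call each plant group only wild type or mutant, without the allele, the way the mutation was made or the cultivar, and each library pools 5 plants. The series title names OsCCT22, OsSh1 and OsCAD2 in connection with seed shattering and lignin synthesis. Plants came from field plots at one of 2 places and libraries are not tied to places, so growing place, line background and mutation cannot be told apart. The state of the mutated genes and markers of the abscission zone or of other tissues were not analysed here, because the IDs carry no annotation.

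The WT libraries held 30382846 to 32055561 read counts and the ossh1 libraries 27044341 to 28600944. Listed estimated counts summed to between 12943442 and 13318430 after rounding in the CK libraries and to between 12526167 and 12812868 in the oscct libraries, but this table covers only some of the genes and its depth is unknown. The oscct table lists rows with a difference between the groups. Among 2509 IDs with a single row and a mean count of 1000 or more, the log2 group differences left an empty stretch 0.14 wide near no change. The stretch was found as the widest gap between sorted differences near no change. No library was a copy of another of its group: the chi-square of each pair, divided by its degrees of freedom, was 1.71 at the lowest and 4.46 at the highest.

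GH9 endoglucanases cut beta-1,4-glucan chains such as those of cellulose. KORRIGAN, known best from Arabidopsis, is a membrane-bound member of the family that works with the cellulose synthase complex at the plasma membrane and is needed for normal cellulose deposition. Other plant members are secreted into the wall, where they are linked to cell expansion and fruit softening, and in bean, soybean and tomato to the dissolution of walls in abscission zones.

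LOC_Os03g52630, the member that the list describes as KORRIGAN-type, was lower in ossh1 than in WT and higher in oscct than in CK. Its change was the largest past the test among the 5 members tested in ossh1 and the largest of the 3 listed in oscct. The oscct table was selected for differences, so passing the test there adds nothing to the listing. In ossh1 LOC_Os03g52630 fell to 0.715 times its WT level, and in oscct it rose to 3.31 times its CK level. The other members tested in ossh1 moved less or did not pass the test. LOC_Os02g50490 rose to 1.21 times, LOC_Os03g21210 fell to 0.836 times, and LOC_Os02g05744 stayed within a narrow interval around no change. The remaining members were at or near the limit of detection in WT and ossh1, with 1 exception, LOC_Os04g57860, that was low but measurable.

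The comparison of ossh1 with WT asks which members differ between the mutant and its own wild type. LOC_Os03g52630 was at 302.9, 308.9 and 302.5 CPM in the WT libraries and at 213.2, 223.5 and 217.3 CPM in the ossh1 libraries. CPM are counts per 1000000 of a library's total over the genes tested, after that total is multiplied by its TMM scaling factor. These factors ran from 1.0329 to 1.0348 in WT and from 0.963 to 0.9731 in ossh1. Every ossh1 library lay below every WT library, and replicates of a group were close together. The WT libraries averaged 305 ± 3.59 CPM and the ossh1 libraries 218 ± 5.19 CPM (SD, n = 3). On the log2 scale it fell by 0.48 (SE 0.03, edgeR adjusted p = 4.68e-17). The p-values are from the quasi-likelihood test of edgeR and were adjusted over all genes tested by the Benjamini-Hochberg method. Of all genes tested, 17.3% had a more negative log2 fold change. As in any bulk sample, fewer cells that express a gene and less RNA per cell cannot be told apart.

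LOC_Os02g50490, a member whose role is not annotated in the sources used here, was at 222.7, 226 and 220.4 CPM in WT. In ossh1 it was at 283.9, 269.9 and 255.7 CPM. The groups did not overlap, and the ossh1 libraries were more spread out than those of WT. Means were 223 ± 2.81 and 270 ± 14.1 CPM (SD, n = 3), and the gene rose by 0.27 on the log2 scale (SE 0.03, edgeR adjusted p = 4.05e-09). Its unscaled counts were nearly equal, with means of 7172 in WT and 7187 in ossh1, so the rise appears once the lower totals of the ossh1 libraries are taken into account. With library totals alone it was 0.18 on the log2 scale and still past the test.

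The WT libraries had 24.12, 22.33 and 22.94 CPM of LOC_Os03g21210, and the ossh1 libraries had 20.72, 19.79 and 17.55 CPM. The groups did not overlap, but the nearest libraries of the 2 groups differed only slightly. Means were 23.1 ± 0.91 and 19.4 ± 1.63 CPM (SD, n = 3), and the gene fell by 0.26 on the log2 scale (SE 0.07, edgeR adjusted p = 0.00292).

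LOC_Os02g05744 had 28.74, 28.64 and 29.35 CPM in WT and 31.05, 29.01 and 27.47 CPM in ossh1. The ossh1 libraries lay on both sides of the WT libraries. The log2 fold change was 0.01 with a 95% confidence interval from -0.12 to 0.14 (edgeR adjusted p = 0.881), and its sign turned to -0.08 with library totals alone. LOC_Os04g57860 was low, with 55, 69 and 49 read counts in WT and 38, 30 and 43 in ossh1. Its groups overlapped after scaling, with a WT mean of 1.8 ± 0.365 CPM and an ossh1 mean of 1.38 ± 0.205 CPM (SD, n = 3). The interval of its log2 fold change, from -0.89 to 0.14, holds both no change and a fall larger than that of LOC_Os03g52630 (edgeR adjusted p = 0.213).

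**Figure D1:**
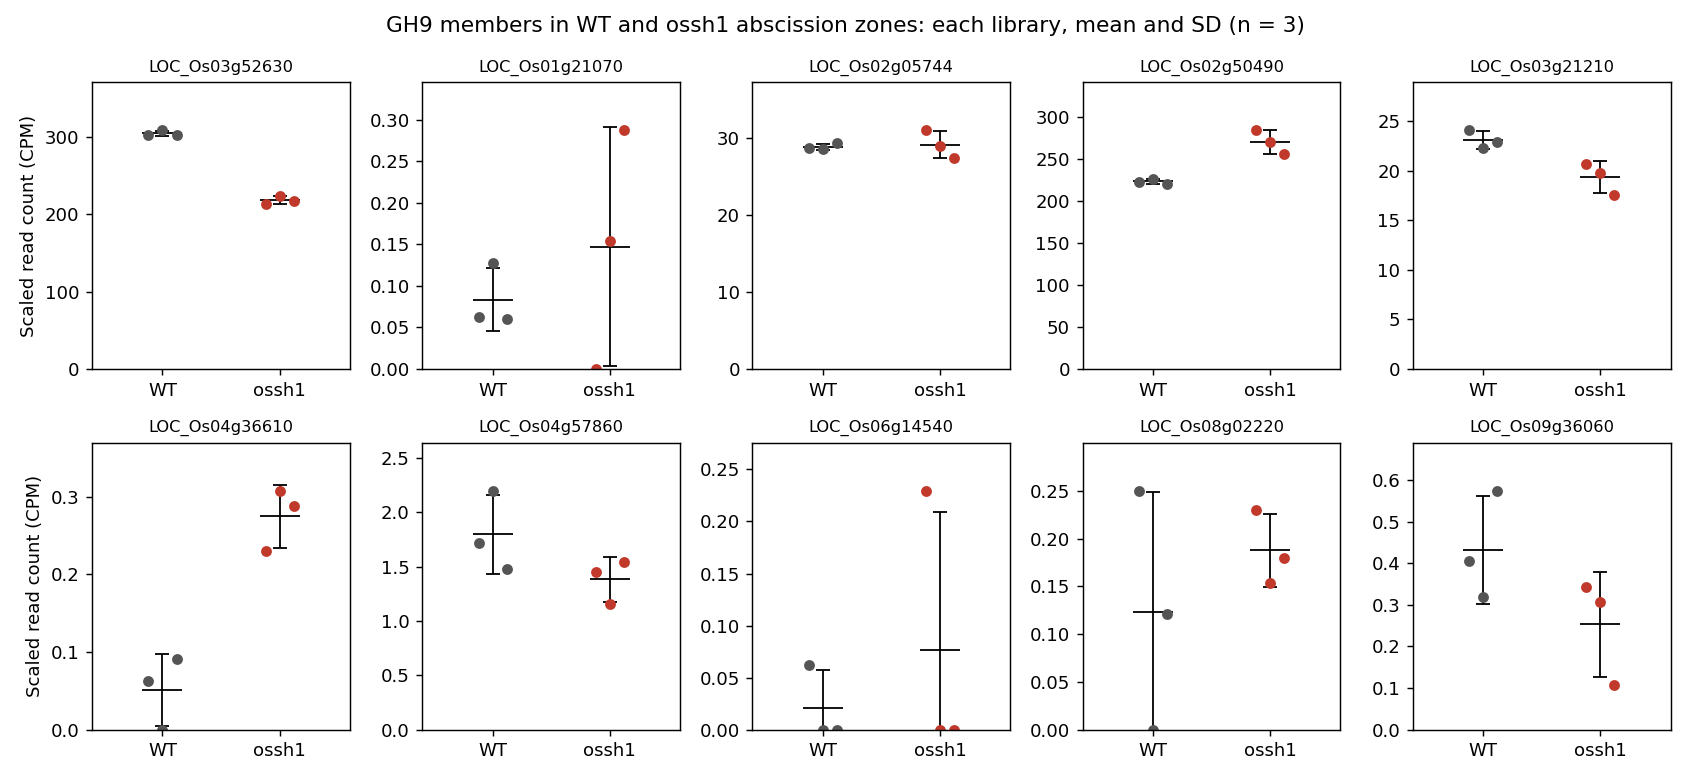
Scaled read counts (CPM, vertical axis, from 0 and on a different scale in each panel) of the 10 GH9 members in the 3 WT and 3 ossh1 libraries. Points are libraries and bars are the mean with SD. LOC_Os03g52630 sat between 302.5 and 308.9 CPM in WT and between 213.2 and 223.5 CPM in ossh1, while 5 members stayed below 0.6 CPM in every library.

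The filter on low counts removed 5 members before the test. LOC_Os04g36610 had 2, 0 and 3 counts in WT and 6, 8 and 8 in ossh1. All 3 ossh1 libraries lay above all 3 WT libraries, at a level of a few reads. LOC_Os09g36060 had 13, 10 and 19 counts in WT and 9, 8 and 3 in ossh1, with overlapping groups. LOC_Os01g21070 had 2, 4 and 2 counts in WT and 0, 4 and 8 in ossh1. LOC_Os08g02220 had 8, 0 and 4 counts in WT and 6, 4 and 5 in ossh1. LOC_Os06g14540 was the least detected, with 2 counts in 1 WT library, 6 counts in 1 ossh1 library and 0 in the other 4. At this depth, differences in the last 3 genes were not detectable. Without the filter LOC_Os04g36610 passed the test with a log2 fold change of 2.32 (SE 0.95, edgeR adjusted p = 0.0431), and the other 4 did not, with adjusted p from 0.357 to 0.634.

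Of the 10 members, 5 were tested in ossh1, and 1 was higher, 2 were lower and 2 did not pass the test. Among all 22669 genes tested, 58.3% passed the test, 29.2% as higher and 29.1% as lower, so a change past the test was common in this comparison. The share of all genes whose groups did not overlap was not computed. Scaling by library totals alone turned the split of all called genes from 6629 higher and 6591 lower to 5257 and 8364, and left the calls of the members as they were. The median log2 fold change was -0.26 over the 5 tested members and -0.01 over all genes tested.

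Because LOC_Os03g52630 and LOC_Os02g50490 moved in opposite directions, the balance between these 2 members changed. The ratio of their read counts within a library needs no scaling between libraries, and gene length cancels when it is compared between groups. It was 1.36, 1.37 and 1.37 in WT and 0.751, 0.828 and 0.85 in ossh1. LOC_Os03g52630 thus had more reads than LOC_Os02g50490 in all 3 WT libraries and fewer in all 3 ossh1 libraries. With 3 libraries a group, a two-sided exact permutation test of the ratio cannot give a p under 0.1. Of the reads counted on the 10 members, LOC_Os03g52630 took 52.3% ± 0.208 in WT and 40.5% ± 1.63 in ossh1 (SD, n = 3). LOC_Os02g50490 took 38.3% ± 0.1 in WT and 50.1% ± 1.27 in ossh1. The summed level of all 10 members was 582 ± 5.62 CPM in WT and 539 ± 16.2 CPM in ossh1, with ranges of 577.5 to 588.5 and 520.4 to 551.4 that did not overlap. These shares count reads and so weight long genes more than short ones.

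**Figure D2:**
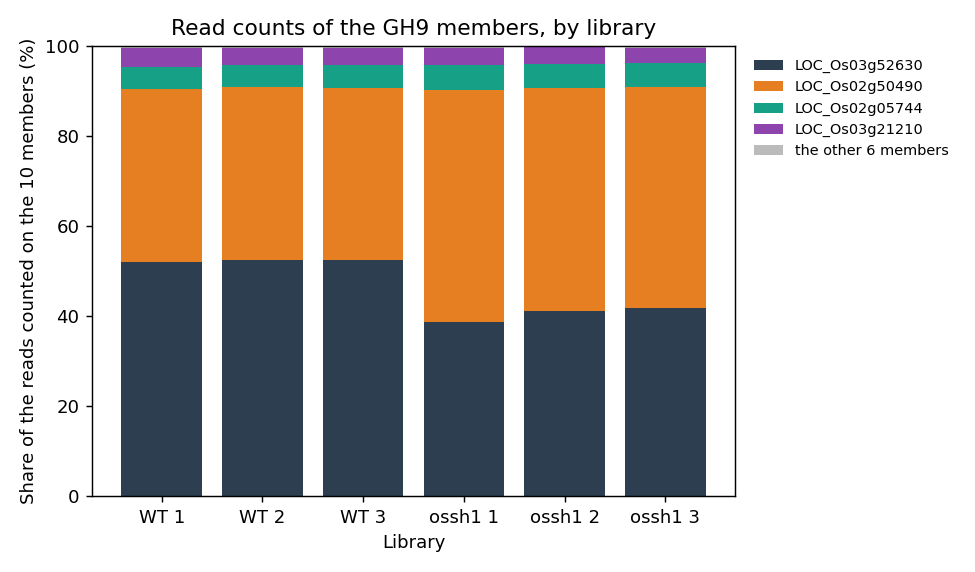
Share of the reads counted on the 10 GH9 members that fell on each of 4 members and on the other 6 together, in percent (vertical axis), by library. LOC_Os03g52630 took from 52.1% to 52.5% in the WT libraries and from 38.7% to 41.8% in the ossh1 libraries, and LOC_Os02g50490 took the larger share in each ossh1 library.

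The comparison of oscct with CK asks the same of the other mutant, for the 3 members that its table lists. Of all IDs in the ossh1 table, 20.9% have a row there, but these include IDs too low to be tested in ossh1. Of the 5 members tested in ossh1, 3 have a row. The matching share of all genes tested in ossh1 was not computed. The other 7 of the 10 members are not listed, and nothing follows from that about their level. Levels in this table are CPM of the listed counts after scaling, not of the whole library. LOC_Os03g52630 was at 40.84, 41.28 and 37.45 CPM in the CK libraries and at 136.8, 125.6 and 133.9 CPM in the oscct libraries. The lowest oscct library was 3.04 times the highest CK library. Means were 39.9 ± 2.1 and 132 ± 5.81 (SD, n = 3), and the log2 fold change was 1.73 (SE 0.05, edgeR on summed rows adjusted p = 2.13e-14). Among the IDs tested in this table, 5.3% had a larger log2 fold change.

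This ID has 2 rows in the oscct table, and both were higher in oscct. Its first row had estimated counts of 217.19, 201.66 and 131.37 in CK and 596.02, 555.97 and 589.34 in oscct. The second was at 292.81, 302.34 and 339.63 in the CK libraries and at 1223.98, 1121.03 and 1231.66 in the oscct libraries. In neither row did the groups overlap. Fitted apart, the first row rose by 1.59 log2 units (SE 0.14, edgeR adjusted p = 1.81e-06) and the second by 1.86 (SE 0.06, edgeR adjusted p = 1.44e-09). Both rows were listed in a table selected for differences and come from the same libraries. These 2 calls thus add nothing to the listing and are not independent of each other. Summed, the rows gave whole numbers in each library, from 471 to 510 in CK and from 1677 to 1821 in oscct. The first row held 42.6%, 40% and 27.9% of the sum in the CK libraries and 32.4% to 33.2% in the oscct libraries. The division between the rows thus varied more within CK than within oscct. Whether this ID has further rows that were not listed is not known.

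LOC_Os02g05744 was at 5.765, 5.897 and 6.043 CPM in CK and at 10.97, 10.41 and 10.81 in oscct. These rest on 72, 72 and 76 estimated counts in CK and 146, 139 and 147 in oscct. The groups were well apart, and the log2 fold change was 0.86 (SE 0.11, edgeR adjusted p = 1.73e-06). LOC_Os03g21210 was at 25.3, 27.52 and 25.13 in CK and at 31.42, 30.49 and 33.67 in oscct. Its groups did not overlap, but their nearest libraries differed by only 1.11 times, and the log2 fold change was 0.29 (SE 0.07, edgeR adjusted p = 0.000654). Over the alternatives that change ran from 0.25, when centred on the empty stretch of group differences, to 0.46 with library totals alone, still past the test.

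**Figure D3:**
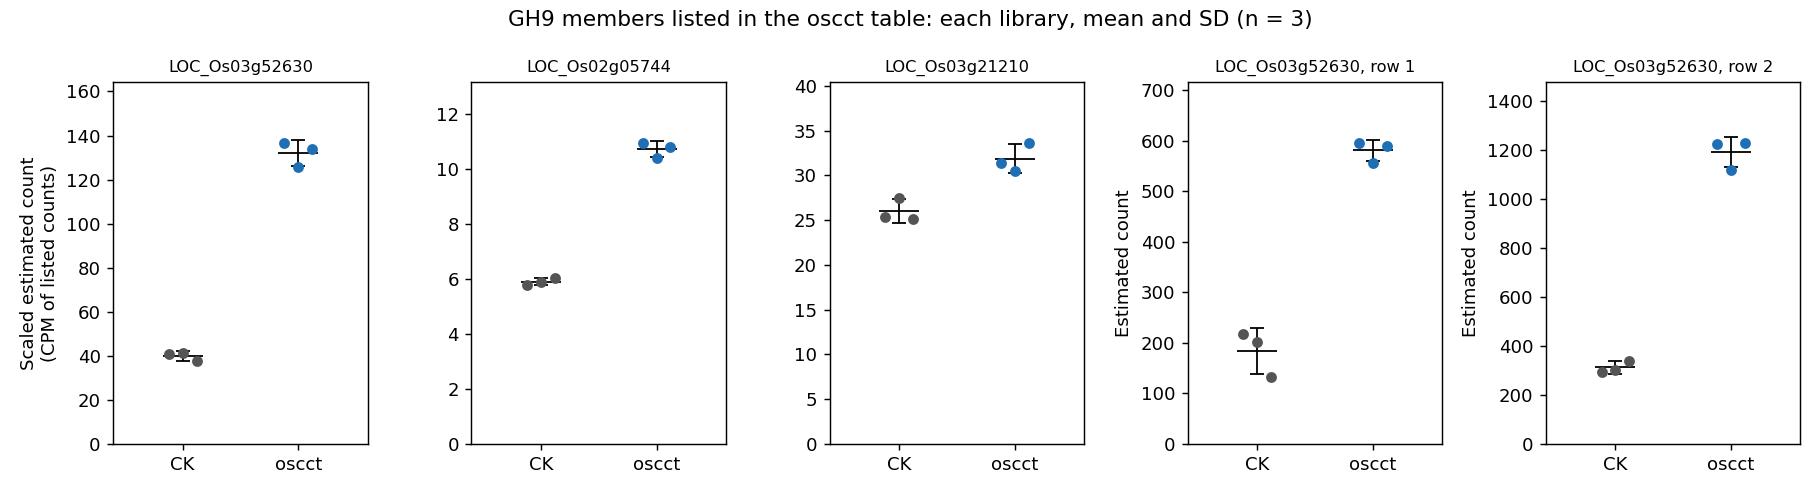
Levels in the 3 CK and 3 oscct libraries of the 3 listed GH9 members (first 3 panels, CPM of the listed estimated counts) and of the 2 rows of LOC_Os03g52630 (last 2 panels, estimated counts). Points are libraries, bars are the mean with SD, and each vertical axis starts at 0. In each panel all oscct libraries lie above all CK libraries, in a table where 99.2% of the IDs tested passed the test.

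All 3 listed members were higher in oscct. Of the 11518 IDs tested in this table, 48.9% were higher and 50.3% lower in oscct. In all, 99.2% of the IDs passed the test in this table selected for differences, so a call there adds nothing to the listing. How many of all listed IDs had groups that did not overlap was not computed. The median log2 fold change was 0.86 over the 3 members and -0.09 over all IDs tested.

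Whether a member changed differently in the 2 mutants was tested in one model of all 12 libraries, with no control library in common. For LOC_Os03g52630 the log2 fold change was 2.21 higher in oscct than in ossh1 (SE 0.06, edgeR adjusted p = 3.76e-21), with each change past its own test and in opposite directions. For LOC_Os03g21210, which also fell in ossh1 and rose in oscct, the difference was 0.55 (SE 0.11, edgeR adjusted p = 3.85e-05). For LOC_Os02g05744, whose interval in ossh1 included no change, it was 0.85 (SE 0.13, edgeR adjusted p = 1.74e-06). All 3 differences were positive. Of the 11654 IDs tested for a difference, 80.3% passed, 40.8% were higher in this sense and 39.5% lower, a split of 4754 and 4606 that became 5732 and 3543 with library totals, which moved the median difference of all IDs from 0.02 to 0.29. These IDs entered through the oscct table, which was selected for a change in oscct.

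**Figure D4:**
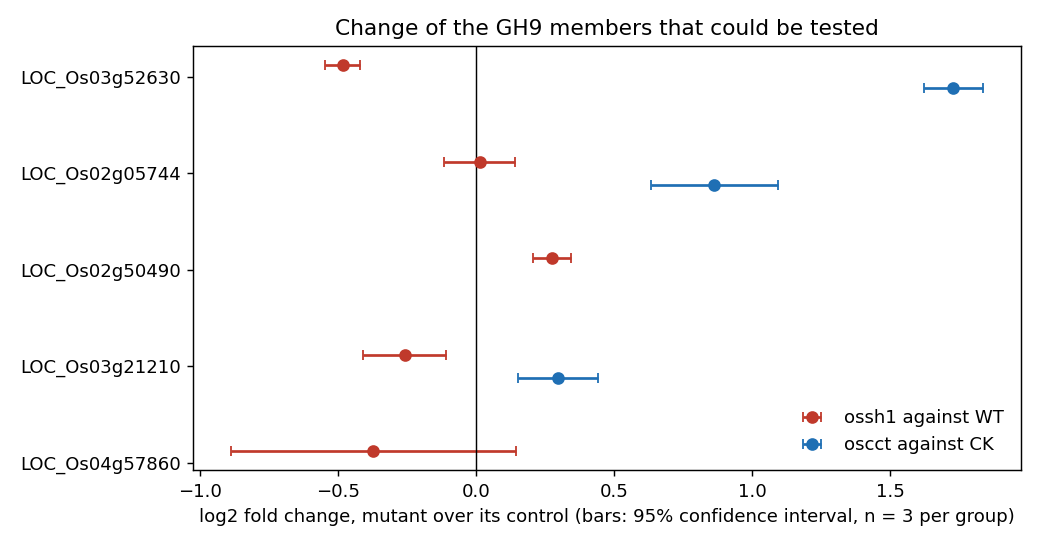
Log2 fold change of each tested GH9 member, mutant over its own control (horizontal axis). Bars are 95% confidence intervals derived from the F statistic of edgeR (3 libraries a group). LOC_Os03g52630 and LOC_Os03g21210 lie left of 0 in ossh1 (red) and right of 0 in oscct (blue), and LOC_Os02g50490 and LOC_Os04g57860 have no oscct value because the table does not list them.

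The surroundings of the members along the chromosome were read from the serial numbers of the locus IDs, taking the 10 tested genes on either side. Around LOC_Os03g52630, 10 of 20 neighbours were lower and 1 was higher in ossh1, with a median log2 fold change of -0.17. The next gene upward in number, LOC_Os03g52640, fell by 0.9 on the log2 scale (SE 0.12, edgeR adjusted p = 8.28e-09). In oscct, where LOC_Os03g52630 rose, 8 of its 20 nearest listed neighbours were higher and 12 lower, with a median of -0.22. Among the nearest listed IDs in oscct, 12 were higher and 8 lower around LOC_Os02g05744, with a median of 0.42, and 9 were higher and 11 lower around LOC_Os03g21210, with a median of -0.21. In ossh1, around LOC_Os02g50490, which rose there, 11 of 20 neighbours were higher and 5 lower, with a median of 0.32. Around LOC_Os03g21210 it was 5 higher and 7 lower in ossh1, with a median of 0.02. Around LOC_Os02g05744, which did not pass the test in ossh1, 3 were higher and 6 lower, with a median of -0.09. The medians of the neighbours thus had the sign of the member in some cases and the opposite sign in others. For comparison, 29.2% of all genes tested in ossh1 passed as higher and 29.1% as lower. Of all IDs tested in oscct, 48.9% passed as higher and 50.3% as lower. The medians over each whole comparison were -0.01 and -0.09. All 20 oscct neighbours of each of these members passed the test, so a call there adds nothing to the listing. Whether neighbours depart from these shares was not tested.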

How the data were processed

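Both tables come from the authors. Values for WT and ossh1 were deposited as read counts, all of them whole numbers, with 1 row per ID, per the file headers. Values for CK and oscct carry the same heading but are estimated counts: many of the deposited values are not whole, and some IDs have several rows. Per the submitters' processing notes, the tools HISAT2, RSEM 1.3.1 and DESeq2 and the assembly IRGSP-1.0 belong to the pipeline, in roles not stated; strand handling is not stated either. Related family members can share reads, so counts of close copies are uncertain.

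Rows of one ID were summed, then rounded. Whole tables were fitted in edgeR 4.0.16 (R 4.3.3) after filterByExpr and TMM scaling, with glmQLFit and glmQLFTest for mutant against control. Adjustment followed Benjamini and Hochberg, and 0.05 was the threshold. The SE given beside an edgeR p is the absolute log2 fold change divided by the square root of the F statistic. Confidence intervals were built from this SE with the t distribution. For the difference of changes, scaling factors came from each full table. All members are reported. Members and lists were chosen with earlier results of these data known. Planned lists of other wall genes and tissue markers were not used because no ID is annotated, and 0 reference entries matched a member. Correlations between members are not given because the libraries form separate groups.

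Alternatives were a replicate block, RLE scaling, library totals, no filter, a filter at a mean of 1 CPM, DESeq2 1.42.0, limma-voom 3.58.1, a threshold of 0.01, each library left out, one fit of all 12 libraries, other treatments of repeated IDs and centring on the empty stretch of group differences. The procedures were tested on simulated data. Figures were drawn with matplotlib 3.10.9.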

Additional observations from a re-analysis of the deposited data

Results flagged for a closer look

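By the test of the difference itself, 3 members changed differently in the 2 mutants. The log2 fold change in oscct exceeded that in ossh1 by 2.21 for LOC_Os03g52630, by 0.85 for LOC_Os02g05744 and by 0.55 for LOC_Os03g21210. Of the 11654 IDs tested, 80.3% passed this test and 40.8% passed it in this direction, so a call there was common. All of them entered through a table selected for a change in oscct, which limits what the calls of the 3 members show.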

How the results depend on the processing

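Of 183 log2 fold changes of members recomputed under an alternative, 181 kept their direction and their side of the threshold. Of 262 counts of genes, IDs or members, 256 stayed within 1.5 times the count first reported. Among these, the difference of changes was called for 2 members instead of 3 when IDs with several rows were left out, since LOC_Os03g52630 has 2 rows. The log2 fold change of LOC_Os03g52630 ran from -0.58 to -0.47 in ossh1, from 1.68 to 1.9 in oscct and from 2.17 to 2.48 for the difference. In ossh1, LOC_Os02g50490 ran from 0.18 to 0.31 and LOC_Os03g21210 from -0.36 to -0.19, with a highest adjusted p of 0.0353 (all 15 alternatives for the latter, by edgeR unless the alternative names another tool). LOC_Os02g05744, not past the test in ossh1, turned to -0.084 with library totals and ran from -0.034 (without ossh1 replicate 1) to 0.055 (without ossh1 replicate 3) with each library left out. With no filter on low counts, 2 members instead of 1 were higher in ossh1, because 10 instead of 5 were tested. One fit of all libraries over the shared IDs gave 3966 higher and 3824 lower genes and 0 higher members in ossh1, because LOC_Os02g50490 and many other genes have no row in the oscct table. No pairing by replicate number was seen. Same-numbered libraries had correlations of deviations from -0.07 to 0.03, and differently numbered ones from -0.03 to 0.06. This check cannot show that samples were not collected or processed in pairs. With the replicate block, 6511 genes were higher and 6460 lower in ossh1, and no call of a member changed. Leaving out each library kept 1 member higher and 2 lower in ossh1 and 3 higher in oscct. Depth limits the 5 members with under 20 counts in each library.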

Other observations

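The control groups also differed in the balance between members, as a description chosen after seeing the data and across tables that were made separately. The count of LOC_Os03g52630 was 13.2 ± 0.637 times that of LOC_Os03g21210 in WT and 1.53 ± 0.0687 times in CK (SD, n = 3). In the mutants it was 11.3 ± 1.05 times in ossh1 and 4.15 ± 0.191 times in oscct. LOC_Os02g05744 had 1.25 ± 0.0515 times the count of LOC_Os03g21210 in WT and 0.228 ± 0.0131 times in CK. Relative to the median ratio of CK to WT over 7959 IDs with a single row and a mean of at least 50 counts in both, the log2 ratio was -3.55 for LOC_Os03g52630, -2.91 for LOC_Os02g05744 and -0.45 for LOC_Os03g21210. Of those IDs, 2.21% lay below LOC_Os03g52630 and 4.28% below LOC_Os02g05744. Rows that the oscct table does not list, of these members or of the 7959 IDs, would change these values, and their part was not tested.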
